A study of Mus musculus with 20 samples.

Results

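Proliferating thymic precursors of intraepithelial lymphocytes (IELPs) were looked for by scRNA-seq in 1 TBGR mouse, as the cells that carried at least 1 transcript of Mki67 or Top2a. The members were thus chosen by their own Mki67 and Top2a counts. Of 678 TBGR cells with at least 2000 transcripts, out of 768 sorted wells, 252 met this rule and are called Mki67/Top2a+ cells below, and the other 426 are called Mki67/Top2a- cells. All 252 were counted, and the series as a whole held 1413 cells of that depth in 1920 wells. IELPs were sorted from the thymus as CD4-CD8- TCRβ+ NK1.1- cells (the design text deposited with the data writes NK1.1+, and the study's methods were followed), after depletion of CD4+ and CD8+ thymocytes. TBGR mice carry a ZsGreen reporter of T-bet. The mouse was 4 weeks old, wild type for C-myc and untreated, and 4 populations were each sorted into 2 libraries of 96 wells. These were CD122-T-bet- cells (CD122- below), CD122+T-bet- cells, and the CD122+ cells with intermediate (T-bet int) or high (T-bet high) reporter signal. For comparison, the same 4 populations came from 1 untreated mouse of 2 weeks labelled TBGR C-myc fl/fl, which carries an intact but floxed C-myc, and both T-bet- populations also from 1 mouse of 2 weeks labelled TBGR C-myc D/DCd4, in which a Cd4-driven Cre deletes C-myc. The study writes both mouse and mice for these samples, and parts of its text give an age range for both C-myc genotypes. Each genotype was taken as 1 mouse of the labelled age, so no test between populations or genotypes could be run. Intervals cover counting error only, and the value of each library is given.

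Mki67 encodes Ki-67, a protein that coats chromosomes in mitosis and is made in every phase of the cycle except G0. Top2a encodes topoisomerase IIα, which untangles replicated DNA in S and G2/M phase. IELPs are agonist-selected: after a strong signal through the T cell receptor they express Helios (Ikzf2), in the study from the CD122-T-bet- stage on. They then gain CD122, the shared β chain of the IL-2 and IL-15 receptors. The study places the rise of PD-1 (Pdcd1) in the CD122+T-bet- stage, before T-bet (Tbx21). The cells leave the thymus to become CD8αα+ lymphocytes of the gut epithelium.

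Libraries stood apart in ways that touch these counts. The 96 wells of a library used 1 of 2 barcode sets, and 12 of the 28 pairs of TBGR libraries shared all 96 cell barcodes. Each table also held 96 barcodes that no cell had received. In these, 0 to 6 transcripts of Mki67 and Top2a were counted per library, except in the second T-bet high library, where there were 14 in 9 barcodes. The median total of its unused barcodes was 105.5 transcripts, against 14.5 to 30 in the other 7 libraries, and over 96 barcodes these totals had a correlation of 0.98 with those of the first T-bet int library, whose cells carried the same barcodes. The unused barcodes held 1.76% of the transcripts of those cells. For the first T-bet high and first T-bet int libraries the highest such correlation was 0.87 and 0.88, both with the second T-bet int library. Their unused barcodes held 0.32% and 0.24% of the transcripts of its cells. In the remaining libraries the highest correlation was 0.18 to 0.43. The cells of the second T-bet high library were also the shallowest, and 55 of its 96 wells passed. Median totals per cell were 5118 in CD122-, 7073.5 in CD122+T-bet-, 6348 in T-bet int and 4309 in T-bet high cells. Cells were sorted singly, and no doublet caller was run.

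The rule took 172 cells with Mki67 and 184 with Top2a, and 104 cells had both. At its edge lay 102 cells (40.5%) with a single transcript of either gene, just outside it the 426 cells with none. The median was 2 transcripts and the highest 122. Cells with 10 or more transcripts held 82.6% of all Mki67 and Top2a transcripts that were counted. In CD122+T-bet- cells Mki67 stood at 489 and 415 and Top2a at 487 and 410.4 CPM in the Mki67/Top2a+ cells of the first and second library, where CPM counts the transcripts of a gene per 1000000 transcripts summed over the cells, and in T-bet int cells at 838 and 743 and at 795 and 804. Since the rule chose on these values, they are a description.

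The promoters of the genes behind the rule are shown with those of the 2 G2/M and 2 S phase genes that had the largest ratios in both populations compared below, among genes whose symbol was in the promoter table, to show which of them hold motifs known from cell cycle promoters. They come from RefSeq (GRCm38.p6), 250 bases before to 50 bases after the first listed start. Mki67 lies at chr7:135716330-135716629 on the minus strand, Top2a at chr11:99024140-99024439 on the minus strand, Ccnb2 at chr9:70421505-70421804 on the minus strand, Ube2c at chr2:164769679-164769978 on the plus strand, Rrm1 at chr7:102441445-102441744 on the plus strand and Dut at chr2:125247265-125247564 on the plus strand. Capitals mark the cell cycle homology element (CHR, TTTGAA or TTTAAA) and the CCAAT box, on either strand.
Mki67: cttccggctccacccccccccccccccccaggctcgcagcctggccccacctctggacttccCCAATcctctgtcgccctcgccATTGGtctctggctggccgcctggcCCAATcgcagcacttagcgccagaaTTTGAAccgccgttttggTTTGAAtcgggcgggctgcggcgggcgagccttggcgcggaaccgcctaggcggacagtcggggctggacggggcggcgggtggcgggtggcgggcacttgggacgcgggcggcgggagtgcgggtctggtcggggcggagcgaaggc
Top2a: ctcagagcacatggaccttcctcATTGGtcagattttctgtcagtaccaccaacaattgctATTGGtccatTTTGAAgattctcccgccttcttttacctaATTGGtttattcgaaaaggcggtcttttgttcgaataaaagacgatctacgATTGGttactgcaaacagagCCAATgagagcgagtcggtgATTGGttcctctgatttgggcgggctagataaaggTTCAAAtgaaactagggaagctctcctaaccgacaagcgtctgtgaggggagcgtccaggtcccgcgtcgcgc
Ccnb2: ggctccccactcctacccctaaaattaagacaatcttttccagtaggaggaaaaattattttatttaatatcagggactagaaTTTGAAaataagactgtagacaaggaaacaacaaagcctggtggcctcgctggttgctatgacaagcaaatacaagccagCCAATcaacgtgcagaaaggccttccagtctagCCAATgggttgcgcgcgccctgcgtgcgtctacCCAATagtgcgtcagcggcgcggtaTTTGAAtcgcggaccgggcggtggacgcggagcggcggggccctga
Ube2c: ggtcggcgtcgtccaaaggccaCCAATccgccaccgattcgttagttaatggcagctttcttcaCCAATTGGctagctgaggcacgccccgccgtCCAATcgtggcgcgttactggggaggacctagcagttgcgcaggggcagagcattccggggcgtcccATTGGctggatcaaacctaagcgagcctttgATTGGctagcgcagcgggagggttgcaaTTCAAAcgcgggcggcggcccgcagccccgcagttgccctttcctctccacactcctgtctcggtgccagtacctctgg
Rrm1: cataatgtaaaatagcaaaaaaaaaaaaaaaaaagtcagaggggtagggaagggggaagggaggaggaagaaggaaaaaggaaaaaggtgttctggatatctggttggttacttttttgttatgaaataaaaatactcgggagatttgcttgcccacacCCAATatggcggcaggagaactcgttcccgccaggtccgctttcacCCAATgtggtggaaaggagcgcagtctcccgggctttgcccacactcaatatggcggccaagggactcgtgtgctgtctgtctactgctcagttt
Dut: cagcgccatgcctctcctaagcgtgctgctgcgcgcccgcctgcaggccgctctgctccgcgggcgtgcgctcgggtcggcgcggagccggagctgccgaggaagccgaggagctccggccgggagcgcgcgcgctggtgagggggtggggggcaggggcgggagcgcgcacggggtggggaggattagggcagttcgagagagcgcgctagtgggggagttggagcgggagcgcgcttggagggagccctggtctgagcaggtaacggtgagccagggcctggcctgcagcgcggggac

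The windows of Mki67, Top2a, Ccnb2 and Ube2c each held a CHR match and at least 3 CCAAT matches, of which one pair in Ube2c overlaps. Of the S phase genes, Rrm1 held 2 CCAAT matches and no CHR match, and Dut held neither. Among 27025 promoters of this length, 27.8% held a CHR match, 37.9% a CCAAT match and 10.9% both. Of the 126 genes of the G2/M list, 98 had a promoter in the table, of which 65.3% held a CHR match and 52.0% both motifs. Of the 99 S phase genes, 78 had one, of which 24.4% held a CHR match. An E2F motif (TTTCCCGC, TTTGGCGC, TTTGGCGG, TTTCGCGC or TTTCCCGG, on either strand) was found in 39.7% of the S phase promoters, 16.3% of the G2/M promoters and 3.66% of all. These matches are letters in a window and not measured binding.

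Most Mki67/Top2a+ cells (111 and 114) lay in the middle populations. They made up 9.77% of CD122- cells (17 of 174, exact 95% interval 5.80 to 15.2), 59.7% of CD122+T-bet- cells (111 of 186, 52.3 to 66.8), 66.7% of T-bet int cells (114 of 171, 59.1 to 73.7) and 6.80% of T-bet high cells (10 of 147, 3.31 to 12.2). By library the shares were 11.5% and 8.05% of CD122- cells, 66.0% and 53.3% of CD122+T-bet- cells, 67.8% and 65.5% of T-bet int cells, and 3.26% and 12.7% of T-bet high cells. Thus all 4 libraries of the middle populations lay above the 4 of the outer ones, and the intervals within each of these pairs overlapped.

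Depth moved the level of these shares but not this split. After every cell was thinned to 2000 transcripts, the shares were 4.60%, 33.3%, 39.8% and 5.44% in the same order. When at least 5 transcripts were asked for, 1 CD122- cell (0.575%), 26 CD122+T-bet- cells (14.0%), 35 T-bet int cells (20.5%) and 2 T-bet high cells (1.36%) remained. In the T-bet int libraries this stricter share was 25.3% and 15.5%, and in the CD122+T-bet- libraries 13.8% and 14.1%.

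**Figure D1:**
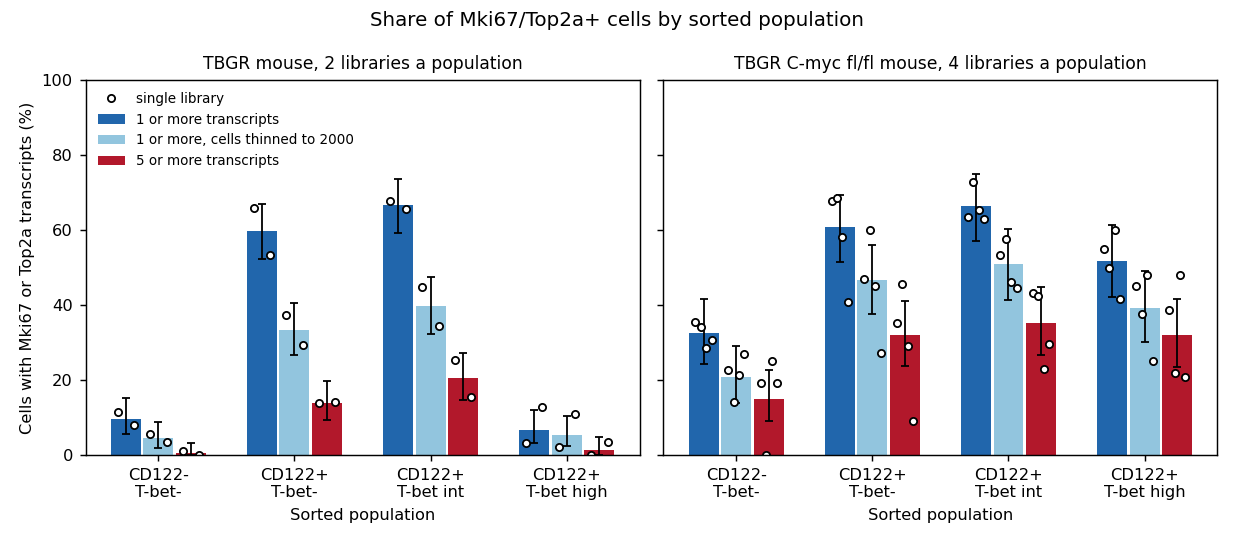
Share of cells with Mki67 or Top2a transcripts (y axis, percent) in the 4 sorted populations (x axis) of the TBGR mouse (left) and the C-myc fl/fl mouse (right). Bars are the share over all libraries with exact 95% binomial intervals, for 1 or more transcripts, for 1 or more after thinning to 2000 transcripts and for 5 or more; open points are single libraries. In the TBGR mouse the CD122+T-bet- and T-bet int bars (59.7% and 66.7%) stand above those of the outer populations (9.77% and 6.80%), while in the C-myc fl/fl mouse the T-bet high bar reaches 51.8%.

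The other cell cycle genes were used to check the label. Transcripts of the S phase list (99 genes of DNA replication, such as Mcm and Rfc genes) and of the G2/M list (126 genes, such as cyclin B and kinetochore genes), without the genes of the rule, were summed for cells with 0, 1, 2 to 4, 5 to 9 and 10 or more transcripts of Mki67 and Top2a. In CD122+T-bet- cells the G2/M list stood at 5009 CPM in the 75 cells with none, 4700 in the 45 cells with 1, 5145 in the 40 cells with 2 to 4, 7052 in the 11 cells with 5 to 9 and 20157 in the 15 cells with 10 or more. In T-bet int cells it stood at 3613, 3907, 4152, 5106 and 21635 in 57, 39, 40, 7 and 28 cells. Thus the G2/M list was high in the last class of cells alone.

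Summed over cells, the S phase list went up earlier along this series. It stood at 2935 CPM with none, 2760 with 1, 4249 with 2 to 4, 6972 with 5 to 9 and 11018 with 10 or more in CD122+T-bet- cells. In T-bet int cells it stood at 2682, 2537, 4377, 8450 and 13550. The median of single cells moved less: with 2 to 4 transcripts it was 3038 CPM, against 2576 with none, in CD122+T-bet- cells. In T-bet int cells this median was 2948 against 2670. With 5 to 9 transcripts the medians were 5339 and 4739 in these populations. So cells with a single transcript had no more of either list than cells with none in CD122+T-bet- cells. In these populations the label cycling is borne out by these genes mainly for cells with 5 or more transcripts. The 12 CD122- cells with a single transcript had 2887 CPM of the S phase list, against 1686 in the 157 with none. Their G2/M list stood at 2208 against 2446. For 6 and 137 T-bet high cells the values were 2455 against 2026 (S phase) and 2221 against 2132 (G2/M). Over all populations the 46 cells with 10 or more transcripts had a median of 84.5 detected G2/M genes and 65.5 S phase genes, against 13 and 11 in the 102 cells with 1 transcript and 8 and 7 in the 426 with none.

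**Figure D2:**
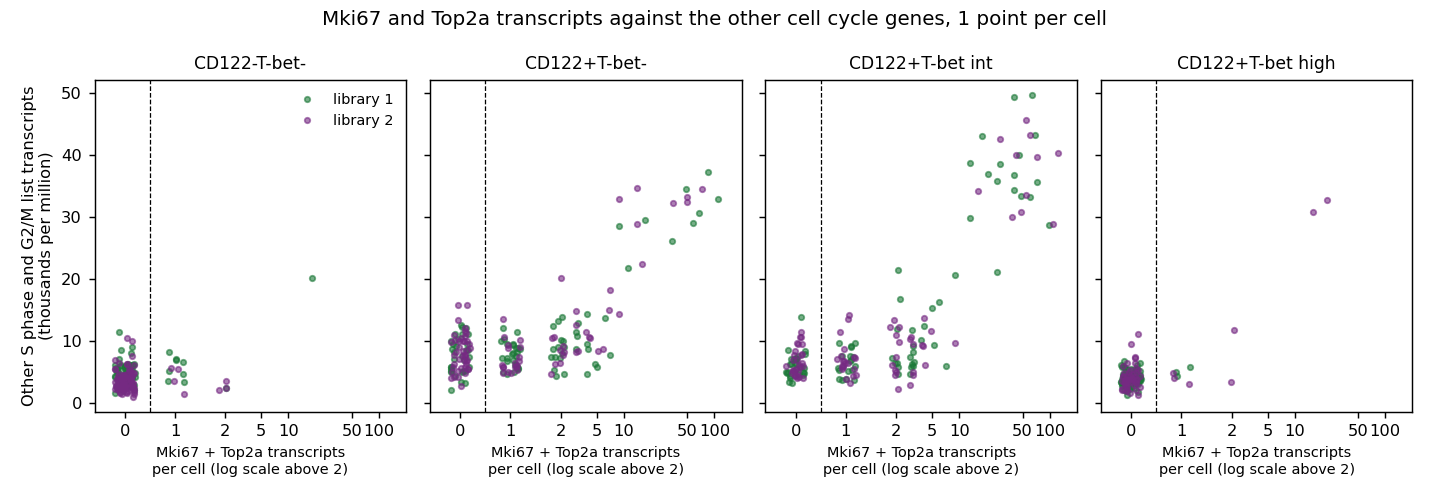
Each point is 1 cell of the TBGR mouse, with its Mki67 and Top2a transcripts on the x axis (log scale above 2) and its transcripts of the other S phase and G2/M genes on the y axis (CPM divided by 1000), coloured by library. Points right of the dashed line are Mki67/Top2a+; cells with 1 transcript reach 14234 CPM and cells with none 15928, while the 46 cells with 10 or more start at 20204, a height that 2 cells with 2 to 4 and 3 cells with 5 to 9 also reach.

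**Figure D3:**
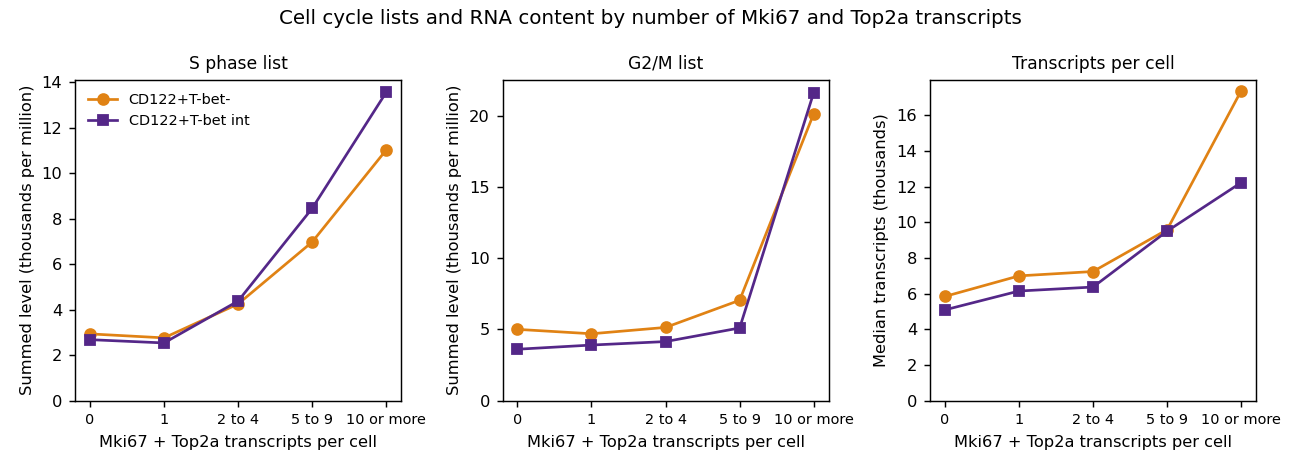
Summed level of the S phase list (left) and the G2/M list (middle), in CPM divided by 1000, and median transcripts per cell (right, also divided by 1000), by the number of Mki67 and Top2a transcripts in the cell (x axis), for CD122+T-bet- and T-bet int cells. The G2/M line stays low up to 5 to 9 transcripts and then reaches 20157 and 21635 CPM, while the S phase line climbs from 2 to 4 transcripts on.

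Mki67/Top2a+ cells held more RNA. The median total was 7451 transcripts in Mki67/Top2a+ and 5845 in Mki67/Top2a- cells of the CD122+T-bet- population, a ratio of 1.27, and the libraries gave 1.18 and 1.37. In the T-bet int population it was 7137.5 against 5092, a ratio of 1.40, with 1.33 and 1.44 by library. Per spike-in (ERCC) transcript of the same well the ratios were 1.39 and 1.52. For cells with 5 or more transcripts they were 2.28 and 2.35, and for cells with a single one 1.20 and 1.21. A deeper cell gives a Mki67 or Top2a transcript more easily, so RNA content and detection cannot be told apart for cells near the edge of the rule.

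Mki67/Top2a+ cells were next compared with the Mki67/Top2a- cells of the same population, gene by gene, in the 2 populations with at least 20 such cells. Transcripts were summed over cells, given as CPM, and turned into a log2 ratio relative to the median gene; a gene was called when this ratio was at least 1 in size and had the same sign in both libraries, among genes with at least 100 transcripts. In T-bet int cells 101 of 2321 genes (4.35%) were called higher and 13 (0.56%) lower, and in CD122+T-bet- cells 44 of 2614 (1.68%) higher and 23 (0.88%) lower. The lists of S phase, G2/M and proliferation-linked chromatin genes, which follow the phases that the rule selects, gave 63 of their 92 tested genes (68.5%) as higher in T-bet int cells and 24 of 73 (32.9%) in CD122+T-bet- cells, and 0 as lower in both. Mki67 and Top2a, higher by the rule itself, are left out of these list counts but are among the genes called higher above. No test was possible, so these are counts of sizes, not of significant changes, and depth limits them: after thinning to 2000 transcripts only 460 and 446 genes could be examined.

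Among S phase genes, 17 of 26 were higher in T-bet int cells (median log2 ratio 1.59) and 7 of 22 in CD122+T-bet- cells (median 0.61). Rrm1, the large subunit of ribonucleotide reductase, had 32.2 and 12.7 CPM in the Mki67/Top2a- cells of the first and second T-bet int library, and 166 and 225 in their Mki67/Top2a+ cells, a log2 ratio of 2.995 (2.02 to 4.42). Its values in CD122+T-bet- cells were 37.2 and 23.1 against 132 and 87.6 (log2 ratio 1.76, 1.0002 to 2.72). The 2 groups of cells did not overlap between libraries in either population. Dut, which keeps uracil out of DNA, had 38.6 and 44.6 against 188 and 149 CPM in T-bet int cells (log2 ratio 1.95) and a ratio of 1.71 in CD122+T-bet- cells. 2810417H13Rik, which encodes a PCNA-associated factor, reached log2 ratios of 4.17 and 3.94. Mcm3, part of the replicative helicase, had 2.24 and 1.41, and Lig1, the ligase that seals Okazaki fragments, 2.34 and 1.01.

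Among G2/M genes, 28 of 38 were higher in T-bet int cells (median 2.32) and 10 of 23 in CD122+T-bet- cells (median 0.81). Ccnb2, a B-type cyclin that activates CDK1, had 6.44 and 12.7 CPM in Mki67/Top2a- and 141 and 143 in Mki67/Top2a+ cells of the T-bet int libraries, a log2 ratio of 3.64 (2.28 to 6.15). Its values were 9.30 and 7.69 against 89.2 and 110.7 in the CD122+T-bet- libraries (log2 ratio 3.26, 2.02 to 5.33). Ube2c, the ubiquitin-conjugating enzyme of the anaphase-promoting complex, had 0 transcripts in all 57 Mki67/Top2a- and 249 in the Mki67/Top2a+ T-bet int cells, so it was at least 26.5-fold higher, taking 3 transcripts over the group as the floor. Among CD122+T-bet- cells it had 9 against 160 transcripts, a log2 ratio of 2.89. Cdk1, the kinase of mitotic entry, gave 2.45 and 2.28. Placing Ube2c at its bound left the medians of the list as they were.

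Chromatin and tubulin genes followed, with 18 of 28 higher in T-bet int and 7 of 28 in CD122+T-bet- cells. Hmgb2, a chromatin protein of dividing cells, had 199 and 204 CPM in Mki67/Top2a- against 1001 and 978 in Mki67/Top2a+ T-bet int cells (log2 ratio 2.25), and 135 and 127 against 584 and 477 in CD122+T-bet- cells (1.90). Stmn1, which destabilizes microtubules, had ratios of 2.13 and 1.09. None of the 25 histone genes in the table reached 100 transcripts. G1 regulators were not called: 0 of 5 and 0 of 6 tested genes passed. Of all genes outside the cell cycle lists at most 1.62% were called in either direction, so lists this short say little by having no call. Ccnd2, the D-type cyclin of these cells, stood at 805 and 677 CPM in Mki67/Top2a- and 773 and 865 in Mki67/Top2a+ CD122+T-bet- cells, and at 798 and 1038 against 698 and 652 in T-bet int cells. Myc, at log2 ratios of -0.01 and -0.36, was not called either. Cdkn2c, which inhibits CDK4 and CDK6, was too low to examine, with 28 transcripts in Mki67/Top2a+ against 2 in Mki67/Top2a- CD122+T-bet- cells and 50 against 2 in T-bet int cells.

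Outside the cell cycle lists few genes differed. In CD122+T-bet- cells 18 of 2539 (0.709%) were higher and 23 (0.906%) lower, and in T-bet int cells 36 of 2227 (1.62%) were higher and 13 (0.584%) lower. Of the genes called higher, 8 were called in both populations (44.4% of the 18 and 22.2% of the 36), namely 2700094K13Rik, Hivep3, Igfbp4, Jade1, Klra1, Pcna-ps2, Pmf1 and Whsc1. No gene was called lower in both. The counts depended on single libraries: without the first CD122+T-bet- library 5 genes were higher and 6 lower, and without the second 7 were higher and 30 lower. Without the first T-bet int library 20 were higher and 8 lower, and without the second 28 and 16.

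**Figure D4:**
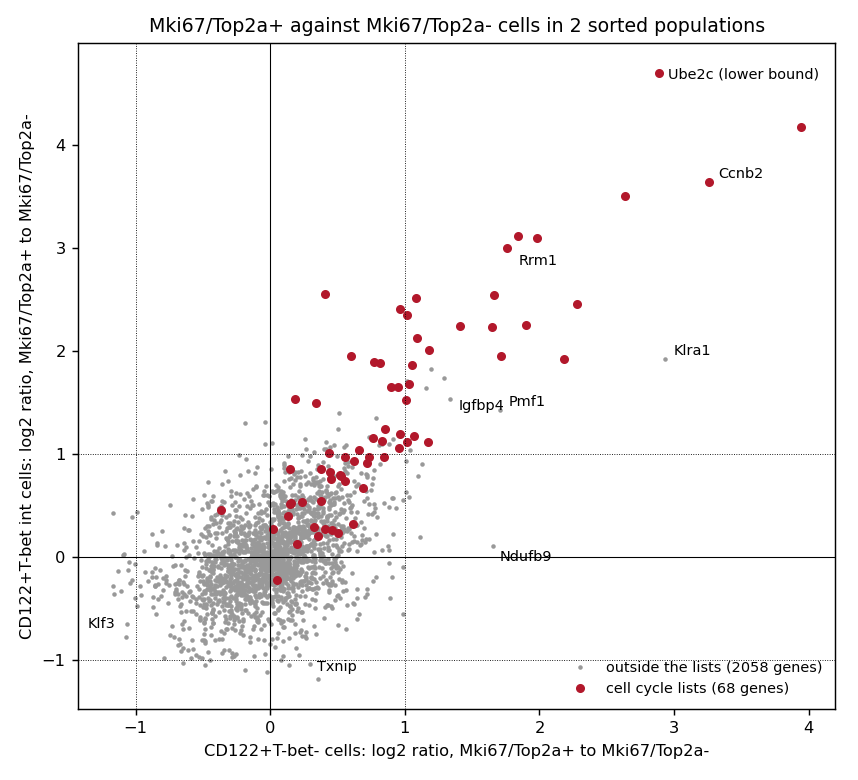
Log2 ratio of Mki67/Top2a+ to Mki67/Top2a- cells, relative to the median gene, in CD122+T-bet- cells (x axis) and T-bet int cells (y axis), for the 2126 genes that could be examined in both (the genes of the rule left out). Red points are the 68 genes of the cell cycle lists and grey points the 2058 others; dotted lines mark a ratio of 1 in size, and Ube2c is drawn at its lower bound. Red points run to the upper right, and among grey points Klra1 stands out with 2.93 and 1.92.

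Klra1, which encodes the Ly49A receptor of the NK cell gene cluster, led the genes outside the lists in CD122+T-bet- cells. It had 13.9 and 11.5 CPM in Mki67/Top2a- cells and 171 and 39.2 in Mki67/Top2a+ cells of the first and second library, a log2 ratio of 2.93 (1.88 to 4.52). Its 113 transcripts came from 22 of 111 cells, and 1 cell held 28.3% of them. In T-bet int cells it had 25.7 and 89.1 against 161 and 301 (log2 ratio 1.92, 1.26 to 2.74). Klra genes are a family of near-identical copies, so reads may be split between them. In the C-myc fl/fl mouse Klra1 was too low to examine in CD122+T-bet- cells (8 against 0 transcripts) and had a ratio of -0.26 in T-bet int cells.

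Pmf1, a subunit of the kinetochore, was higher in both populations, with 37.2 and 26.9 against 129 and 99.1 CPM in CD122+T-bet- cells (log2 ratio 1.70, 0.96 to 2.63) and a ratio of 1.43 in T-bet int cells. 2700094K13Rik, which encodes a small selenoprotein, had ratios of 1.29 and 1.74, and Jade1, a subunit of a histone acetyltransferase complex, 1.16 and 1.64. Pcna-ps2, a pseudogene copy of Pcna that may share its reads, had 1.19 and 1.82 beside 0.95 and 1.65 for Pcna itself. Igfbp4, a secreted protein that binds insulin-like growth factors, had 1.33 and 1.53, but in CD122+T-bet- cells this came from the first library, at 79.1 against 278 CPM, while the second had 53.9 against 57.6.

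Of the other named genes in CD122+T-bet- cells, Ndufb9, a subunit of respiratory complex I, had 51.2 and 15.4 against 111 and 113 CPM (log2 ratio 1.65, 0.91 to 2.58). Its ratio was 0.10 in T-bet int cells. Sephs1, a selenophosphate synthetase homologue, had 1.21, but -0.24 when members and ratios were taken from thinned counts. Among the 36 genes higher in T-bet int cells were further factors of chromosome structure. Smc5, of the SMC5/6 complex, had 19.3 and 25.5 against 113 and 90.5 CPM (log2 ratio 2.06, 1.06 to 3.51). Ncaph2, of condensin II, had a ratio of 1.52, and Whsc1, a histone methyltransferase, 1.71. The ratio of Smc5 was -0.89 and that of Ncaph2 -0.83 in CD122+T-bet- cells, neither called.

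The genes lower in Mki67/Top2a+ CD122+T-bet- cells were small in size, between -1.27 and -1.01. Pik3ip1, an inhibitor of PI3 kinase that marks resting T cells, had 65.1 and 138 CPM in Mki67/Top2a- and 58.9 and 46.1 in Mki67/Top2a+ cells, a log2 ratio of -1.11 (-1.69 to -0.52). Most of this difference came from the second library. Nfkbiz, a nuclear regulator of NF-κB, had 116 and 150.02 against 55.3 and 73.8 (-1.22, -1.74 to -0.69). The E3 ligase gene Mid1 had -1.17 and Mien1 -1.13. Gm26917 (-1.27), Gm37903 (-1.17), Gm17066 (-1.17) and RP23-233O21.6 (-1.16) have no named function, and 1 cell held 39.0% of the Gm26917 transcripts in Mki67/Top2a- cells. Kit, the receptor of stem cell factor, Klf3, a repressor of the Krüppel-like family, and Sesn1, a p53 target of the stress response, were also called, at -1.03, -1.06 and -1.01. In cells with 5 or more transcripts, compared with the same Mki67/Top2a- cells, the ratios were -2.69 for Kit, -1.98 for Klf3 and -1.93 for Pik3ip1.

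In T-bet int cells 4 of the 13 lower genes belonged to the list of T-bet+ maturation. Ccl5, a chemokine of mature cytotoxic cells, had 894 and 796 CPM in Mki67/Top2a- and 206 and 154 in Mki67/Top2a+ cells, a log2 ratio of -2.25 (-2.54 to -1.98). It was found in 26 of 57 and 44 of 114 cells, and 1 Mki67/Top2a- cell held 23.9% of that group's transcripts. Klra7, which encodes Ly49G, had 135 and 382 against 83.2 and 98.9 (-1.54, -1.99 to -1.09). Ly6c2, a surface protein of memory-like T cells, had 212 and 458 against 139 and 198 (-1.04). Itgae, the αE integrin that binds epithelial E-cadherin, had 193 and 134 against 65.4 and 94.7 (-1.07, but 0.036 with counts thinned to 2000 transcripts per cell), and Cd8a, the chain of the CD8αα homodimer, 122 and 216 against 49.5 and 88.4 (-1.34). In each of these genes both Mki67/Top2a+ libraries lay below both Mki67/Top2a- libraries.

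The other 4 named genes that were lower in T-bet int cells were Ifit1, an interferon-induced gene of which 1 cell held 47.9% in the Mki67/Top2a- group (-1.46), the palmitoyltransferase gene Zdhhc18 (-1.18), the chromatin reader Glyr1 (-1.11) and the E3 ligase gene Dtx3 (-1.10). Txnip, which blocks glucose uptake and marks quiescent cells, was called at -1.04. Klrd1, which encodes CD94, had 489 and 490.1 against 281 and 250.3 CPM, a log2 ratio of -0.91 (-1.20 to -0.61) that missed the size of a call. So did Id2 (-0.74), S1pr1, the receptor for thymic exit (-0.80), and Il7r, the IL-7 receptor α chain (-0.93). Tbx21 itself had 12.9 and 57.3 against 49.6 and 54.7, a ratio of 0.48 (-0.42 to 1.62), on 11 and 51 transcripts.

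**Figure D5:**
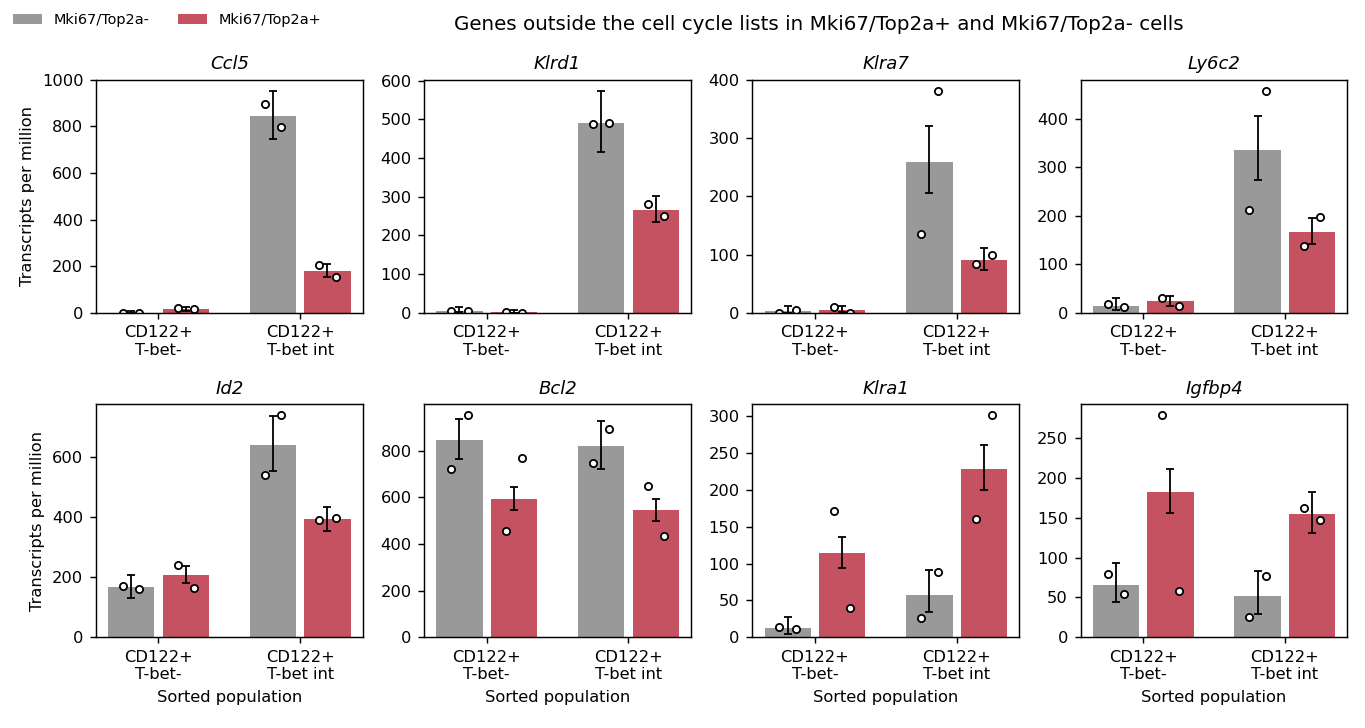
CPM (y axis) of 8 genes outside the cell cycle lists in Mki67/Top2a- (grey) and Mki67/Top2a+ (red) cells of the CD122+T-bet- and T-bet int populations. Bars are sums over cells with exact Poisson 95% intervals and open points are the single libraries; in T-bet int cells Ccl5 falls from 845 to 181 while Klra1 is higher in the red bars of both populations, with the libraries far apart.

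The maturation list behind these genes (31 genes) had 4 of 17 examined genes lower (Ccl5, Klra7, Itgae and Ly6c2) and 1 higher (Klra1) in T-bet int cells, with a median of -0.45, beside 0.584% lower over all genes outside the cell cycle lists. In CD122+T-bet- cells 2 of 11 were higher (Klra1 and Lgals1, a galectin) and 0 lower, with a median of 0.05. Its summed level was 4977 CPM in Mki67/Top2a+ and 6931 in Mki67/Top2a- T-bet int cells. Agonist selection genes did not reach a call in either population (0 of 12 and 0 of 15). Of all genes outside the cell cycle lists, 1.62% were called higher in T-bet int and 0.709% in CD122+T-bet- cells. The lower shares were 0.584% and 0.906%, so a list of this length says little by having no call. Ikzf2 had ratios of -0.09 and -0.42, Pdcd1 of 0.39 and 0.42, and Id3, an inhibitor of E proteins, of 0.12 and 0.30 in T-bet int and CD122+T-bet- cells. In Mki67/Top2a+ CD122+T-bet- cells Ikzf2 was found in 106 of 111 cells and Pdcd1 in 75, and CD122 (Il2rb) in 86.

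Calls among growth and resting genes were set beside the shares over all genes outside the cell cycle lists. Those were 1.62% higher and 0.584% lower in T-bet int cells, and 0.709% and 0.906% in CD122+T-bet- cells. Of the 33 and 32 translation factors examined, Eif4e, the cap-binding protein, was the one called (1.24 in T-bet int cells). Of the glycolytic enzymes, Pgk1 (1.10) and Tpi1 (1.02) were called in T-bet int cells, 2 of 10, and 0 of 10 in CD122+T-bet- cells, with medians of 0.35 in both. Of 69 and 68 genes of oxidative phosphorylation 1 was called in each, Cycs (cytochrome c, 1.17) and Ndufb9. The 18 chaperone genes all lay above the median gene in both populations without a call, at medians of 0.49 and 0.23. None of the ribosome biogenesis genes (15 and 18) or ribosomal proteins (70 and 70) was called, nor of the genes of nucleotide and one-carbon synthesis (7 and 7), and the medians of these lists lay at 0.51 and 0.25, at -0.08 and 0.04, and at 0.48 and 0.24.

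Genes of γ chain cytokine signalling lay below the median gene in all 6 and all 9 cases without a call (medians -0.34 and -0.29). Bcl2, the survival factor downstream of these receptors, had 746 and 891 CPM in Mki67/Top2a- and 646 and 435 in Mki67/Top2a+ T-bet int cells (log2 ratio -0.62), and 721 and 950.1 against 457 and 768 in CD122+T-bet- cells (-0.64). The list of quiescence, thymic exit and homing genes gave Txnip of 16 and Pik3ip1 and Klf3 of 18 as lower, with medians of -0.36 and -0.37. Survival and death genes (0 of 3 in both) and immediate early genes (0 of 7 and 0 of 8) had no calls. These lists are too short to be set apart from the shares over all genes given above. The lists were chosen with results of these data known and are described by these counts alone.

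Markers of other cells were set beside these differences. Genes of CD4+CD8+ thymocytes summed to 161 CPM in Mki67/Top2a+ and 301 in Mki67/Top2a- T-bet int cells, with Rag2, Dntt and Arpp21 at 0 in the former. NKT cell genes summed to 114 against 51.2, with Trav11 at 0 in both. Zbtb16, which encodes the NKT factor PLZF, was found in 22 of 114 and 7 of 57 cells. Erythroid genes reached 528 CPM in the Mki67/Top2a- cells of the first T-bet int library and 31.7 in its Mki67/Top2a+ cells. The thymocyte list of CD122+T-bet- cells had 336 against 400.02, the NKT list 46.3 against 18.9, and the erythroid list 0 in both. The part of such cells in the ratios was not tested.

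The few Mki67/Top2a+ cells of the outer populations were described one by one. Of the 17 CD122- cells, 12 had a single transcript and 4 had 2. The remaining cell had 18 transcripts in a total of 20837, with 295 S phase and 126 G2/M transcripts, 14 of Pdcd1, 9 of Cd4, 5 of Il4 and 3 of Zbtb16. Cd4 was found in all 17 and in 147 of the 157 Mki67/Top2a- cells, so it does not set this cell apart. Trdc, the constant region of the δ chain, was found in 6 of the 17 and in 20 of the 157 Mki67/Top2a- cells.

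Of the 10 T-bet high cells, 6 had a single transcript and 2 had 2, and the 3 cells of the first library were among the former. Both remaining cells came from the second library. One had 16 transcripts and carried 30 of Rag1, 18 of Dntt, 7 of Ptcra and 10 of Cd24a, genes of immature thymocytes; the other had 23, with 10 of Ly6c2, 8 of Nkg7, a granule protein of cytotoxic cells, and 3 of Zbtb16. Genes of CD4+CD8+ thymocytes summed to 900.2 CPM over the 10 cells and 61.6 over the 137 Mki67/Top2a- cells of this gate. The cell with 16 transcripts held 64 of the 65 thymocyte transcripts, and without it the other 9 cells had 16.7 CPM. Genes of mature T-bet+ IELPs summed to 5415 CPM in the 10 cells and 8482 in the others.

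Of these 10 cells, 6 carried the barcode of a T-bet int well with 10 or more Mki67 and Top2a transcripts, whereas 14.6% of the T-bet int wells were of that kind. The 3 cells of the first library, with 1 transcript each, shared barcodes with wells of 61, 69 and 48 transcripts. Among the CD122- cells 2 of 17 carried such a barcode. With the transcripts in unused barcodes given above, transcripts from other libraries and own transcripts cannot be told apart for members with 1 or 2.

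The C-myc fl/fl mouse, which the choice of TBGR cells did not use, gave the same rule a second look. Its shares were 32.5% of CD122- cells (39 of 120), 60.7% of CD122+T-bet- cells (74 of 122), 66.4% of T-bet int cells (77 of 116) and 51.8% of T-bet high cells (58 of 112). By this rule both middle populations were within 1 percentage point of the TBGR mouse and both outer ones above it. After thinning, however, the middle populations stood at 46.7% and 50.9%, against 33.3% and 39.8% in the TBGR mouse. In T-bet high cells its 4 libraries ran from 41.7% to 60.0%, against 3.26% and 12.7% in the TBGR mouse. With 5 or more transcripts the shares were 15.0%, 32.0%, 35.3% and 32.1%, against 0.575%, 14.0%, 20.5% and 1.36% in the TBGR mouse, so all 4 were then higher. Its libraries differed too, since CD122+T-bet- cells with 5 or more transcripts made up 9.09% of the fourth library and 29.0% to 45.7% of the other 3. In its unused barcodes 0 to 2 transcripts of Mki67 and Top2a were counted per library. Age, allele and experiment differ between these mice and cannot be told apart.

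Of the genes called in the TBGR mouse, all 63 and all 24 of the cell cycle lists (Mki67 and Top2a left out) had the same sign in the C-myc fl/fl mouse, where the same rule chose the cells. Outside the lists, 31 of 36 higher and 10 of 13 lower genes of T-bet int cells had it, and 14 of 18 higher and 22 of 23 lower genes of CD122+T-bet- cells. Few of these genes reached 100 transcripts in that mouse, namely 14 of the 36, 0 of the 13, 6 of the 18 and 8 of the 23, and a ratio of at least 1 in size and of the same sign was found for 7, 3, 3 and 7. Over all genes outside the lists that were examined in the TBGR mouse, whatever their count in the other, 43.4% (T-bet int) and 44.9% (CD122+T-bet-) lay above the median gene there. Of these genes, 2.47% were higher and 5.16% lower there by a ratio of at least 1 in size in T-bet int cells. In CD122+T-bet- cells the shares were 2.76% and 5.08%. Ccl5 had a ratio of -0.65 on 34 and 16 transcripts, Klra7 of 0.18, Itgae of -0.86, Cd8a of -1.38 and Klrd1 of -1.15 in T-bet int cells. In CD122+T-bet- cells Pmf1 had 1.32, Ndufb9 -0.84, Mid1 -0.91 and Kit -0.82. In the C-myc D/DCd4 mouse, Mki67/Top2a+ cells made up 46.9% of CD122- cells (60 of 128) and 20.4% of CD122+T-bet- cells (28 of 137). By library the shares were 39.7% and 52.9% of CD122- cells, and 20.7% and 20.3% of CD122+T-bet- cells. After thinning the 2 populations stood at 33.6% and 8.76%, and with 5 or more transcripts at 22.7% and 1.46%.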

How the data were processed

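Single cells, taken as those of 3 mice, were measured by CEL-Seq2 in 20 libraries. Per the submitters' processing notes, reads were handled with bcl2fastq 2.17.1.14 and aligned with BWA 0.6.2-r126; the study's methods name ENCODE VM9 gene models. The authors deposited the estimated count of transcripts per gene and well, converted from unique molecular identifiers, with no normalization between wells; these values were rounded. Groups came from the labels and the deposited description of the wells. Totals exclude genes of the mitochondrial genome and spike-ins, and 96 unused barcodes per library are no cells.

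Sums over cells were divided by their total and given as CPM. For log2 ratios 0.5 was added to both sums and the median ratio over all genes with at least 100 transcripts was subtracted, with intervals from the exact binomial split of both sums; shares have exact Clopper-Pearson intervals (95%). Libraries of 1 mouse and cells are not replicates, so no test was run. Thinning drew 2000 transcripts per cell with a fixed seed. On simulated counts with 5 or fewer false calls among 2343 and 2033 unchanged genes, 97.2% and 96.1% of genes changed by 1.5 (log2) were called in CD122+T-bet- and T-bet int cells, and 100% of those changed by 2. The simulation gave all genes the same independent spread between cells, with no library differences and no choice of cells by their counts. In the data 1 cell could hold much of a gene's transcripts, so these rates may not carry over. Named genes are the 8 called genes outside the cell cycle lists with the largest ratio in each direction, plus members of the lists; others named by value were chosen after their values were seen. Members, lists and comparisons were chosen with earlier results of these data known. Python 3.11.15, numpy 2.4.6, pandas 2.3.3, scipy 1.17.1 and matplotlib 3.10.9 were used.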

Additional observations from a re-analysis of the deposited data

Results flagged for a closer look

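In 3 of 61 genes that were called in either population and examined in both, the ratio of Mki67/Top2a+ to Mki67/Top2a- cells had one sign in both CD122+T-bet- libraries and the opposite sign in both T-bet int libraries; the difference between the populations was not tested. Among all 2058 genes outside the cell cycle lists that were examined in both, 214 had such opposite signs. Gm10715 had log2 ratios of -1.02 and 0.38, Gm17066 of -1.17 and 0.42, and Ube2e3, a ubiquitin-conjugating enzyme, of -0.19 and 1.30 in these populations. Its ratios by library were -0.19 and -0.07 in the former population and 2.76 and 0.24 in the latter.

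In barcodes that no cell had received, Mki67 and Top2a were counted in 14 transcripts in the second T-bet high library and in 6 in the second T-bet int library. The cells of the same libraries shared all 96 barcodes with other libraries, and the effect on single members was not tested.

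In the 4 populations of the C-myc fl/fl mouse, the gap between the highest or lowest of the 4 libraries and the next did not pass Dixon's 95% critical value for the share of Mki67/Top2a+ cells. That value served as a screen only. Libraries of 1 mouse are not independent draws, so a gap below it does not show that they agree. The gap was 0.318, 0.620, 0.752 and 0.455 of the range. The lowest CD122+T-bet- library had 40.9%, against 58.1% to 68.6% in the other 3.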

How the results depend on the processing

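No paired analysis was possible because library numbers do not join the populations and no test was run. Mki67/Top2a+ and Mki67/Top2a- cells were compared within libraries too, but the libraries came from 1 mouse. The cells with 5 or more transcripts, their RNA content, and the libraries left out or thinned in the C-myc fl/fl mouse were added after the data had been seen.

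In the order CD122-, CD122+T-bet-, T-bet int, then T-bet high, the share (9.77%, 59.7%, 66.7% and 6.80%) was 4.60%, 33.3%, 39.8% and 5.44% after thinning, 2.87%, 35.5%, 43.9% and 2.72% with 2 or more transcripts, and 0.575%, 14.0%, 20.5% and 1.36% with 5 or more. Mki67 alone gave 2.30%, 38.7% and 52.0% in the first 3, and Top2a alone 43.5% and 48.5% in the middle ones. Without its first or second library the T-bet high share was 12.7% or 3.26%. Thinning gave 20.8%, 46.7%, 50.9% and 39.3% in the C-myc fl/fl mouse.

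The 18 higher and 23 lower genes outside the cell cycle lists in CD122+T-bet- cells became 2 and 0 with ratios from thinned counts, 1 and 1 with members from thinned counts too, 79 and 76 with at least 50 transcripts, 1043 and 2360 with no filter, and 35 and 7 without subtracting the median. Without 1 library they were 5 to 7 and 6 to 30. The lower genes were 49 with 2 or more transcripts and 58 with 5 or more. The 36 higher and 13 lower genes in T-bet int cells became 3 and 2, 1 and 3, 125 and 74, and 1085 and 1519 under the first 4 of these settings, and 20 to 28 and 8 to 16 without 1 library. With 5 or more transcripts they were 71 and 60, and with 2 or more the lower genes were 38. Thinning examined fewer genes (460 and 446); for the other settings the cause was not tested.

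The RNA ratio of T-bet int cells was 1.52 per spike-in transcript, and with 5 or more transcripts it was 2.35, beside 2.28 in CD122+T-bet- cells. Of the ratios of single genes, 716 values stayed within the counting interval of the main ratio and 122 moved outside it. Sign changes were counted apart only for genes called in the main comparison, and 2 values turned sign. Sephs1 in CD122+T-bet- cells stood at -0.24 with members and ratios from thinned counts. Itgae in T-bet int cells stood at 0.036 with ratios from thinned counts. At a median of 4309 to 7073.5 transcripts per cell, genes with few transcripts and members with 1 transcript are not resolved.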

Other observations

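The cells with 5 or more Mki67 and Top2a transcripts, a class chosen after the data had been seen, were set against the same Mki67/Top2a- cells. In 35 T-bet int cells the median log2 ratio of the G2/M list was 3.16 and that of the S phase list 2.23, beside 0.38 and 0.16 in the 39 cells with a single transcript. Outside the cell cycle lists, chaperones stood at a median of 0.78 in the former and 0.07 in the latter, nucleotide and one-carbon synthesis at 0.74 and -0.10, and ribosome biogenesis at 0.76 and 0.16. Quiescence, thymic exit and homing genes stood at -0.85 and 0.05, and the T-bet and maturation list at -0.92 and 0.10. Ccl5 had -3.18 and -1.18, Itgae -3.63 and 0.23, Klra7 -2.95 and 0.00, and Ly6c2 -2.17 and 0.42.

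In CD122+T-bet- cells, 26 cells with 5 or more transcripts and 45 cells with a single one gave medians of 1.69 and 0.07 for G2/M, 1.04 and -0.08 for S phase, 0.34 and -0.04 for chaperones, -0.67 and -0.15 for γ chain cytokine signalling, and -0.75 and 0.04 for quiescence, thymic exit and homing. Bcl2 had -1.19 and -0.38 and Kit -2.69 and -0.41. The T-bet and maturation list stood at -0.26 and 0.51.

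Among promoters of the genes that were higher outside the cell cycle lists in either population, 33 of 46 were in the RefSeq table, of which 24.2% held a CHR match, 39.4% a CCAAT match and 9.09% an E2F match, against 27.8%, 37.9% and 3.66% of all promoters. Among the 28 G2/M genes higher in T-bet int cells 22 were in it, of which 81.8% held a CHR match.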
